A study of Mus musculus with 104 samples.

Results

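Cells of the mouse line TC1-GFP, labelled as wild-type mouse embryonic stem cells, were grown in a medium named 2MYCP or in the same-named medium without the component abbreviated P, 2MYC, and compared by bulk RNA-seq at matched passages. The libraries were chosen by medium and passage alone: passages 1, 2, 4 and 6 in 2MYCP (n = 4) against passages 1, 2, 4 and 6 in 2MYC (n = 4), 8 of the 104 libraries of the series. All 8 share the cell line and the wild-type genotype, and the labels do not expand the medium names or say what P is. The comparison bears on what P adds to a culture from which the study derives totipotent blastomere-like cells. Each library is 1 passage of 1 culture as far as the labels tell, and the p-values therefore cover no more than the scatter among these 8 libraries, part of which may be technical.

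Several gene programmes frame the comparison. In canonical Wnt signalling, ligands that Porcn modifies with a lipid and Wls carries to the surface bind Frizzled receptors, which stabilises beta-catenin, and beta-catenin with TCF and LEF factors then transcribes targets such as Axin2 and Sp5. The Zscan4, Usp17l and Tdpoz families are transcribed in the mouse embryo at the 2-cell stage and in a small share of embryonic stem cells. The tumour suppressor p53 transcribes cell cycle inhibitors and death genes such as Cdkn1a and Pmaip1 after stress, and SF3B proteins recognise the branch point of introns within the U2 particle of the spliceosome.

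The promoters of some Wnt targets and 2-cell genes that were higher in 2MYCP, described below, were read first. Those of the other members of both groups were not read. The 250 bases before the start of each gene are given 5′ to 3′ on the gene's strand, from RefSeq on GRCm38.p6, with CTTTGA (or TCAAAG, the same letters on the opposite strand), the core of the TCF and LEF motif, in capitals. The 6 sequences are Axin2 (chr11:108920099-108920348, plus strand), Sp5 (chr2:70474673-70474922, plus strand), Dkk1 (chr19:30549497-30549746, minus strand), Zscan4c (chr7:11005495-11005744, plus strand), Zscan4d (chr7:11166149-11166398, minus strand) and Zscan4f (chr7:11397665-11397914, plus strand).
Axin2: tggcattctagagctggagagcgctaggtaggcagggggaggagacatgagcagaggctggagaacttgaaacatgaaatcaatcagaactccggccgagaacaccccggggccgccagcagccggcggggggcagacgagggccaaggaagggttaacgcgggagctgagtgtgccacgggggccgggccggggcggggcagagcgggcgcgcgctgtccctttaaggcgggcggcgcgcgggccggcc
Sp5: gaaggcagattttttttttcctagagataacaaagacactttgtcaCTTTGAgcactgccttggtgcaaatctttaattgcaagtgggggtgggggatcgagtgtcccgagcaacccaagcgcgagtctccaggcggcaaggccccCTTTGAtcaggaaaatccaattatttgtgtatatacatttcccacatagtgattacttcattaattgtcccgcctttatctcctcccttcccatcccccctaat
Dkk1: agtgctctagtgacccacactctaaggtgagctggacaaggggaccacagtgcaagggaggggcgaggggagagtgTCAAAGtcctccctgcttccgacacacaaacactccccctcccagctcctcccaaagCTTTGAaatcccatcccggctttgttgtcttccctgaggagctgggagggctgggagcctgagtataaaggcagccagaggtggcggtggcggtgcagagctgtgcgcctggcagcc
Zscan4c: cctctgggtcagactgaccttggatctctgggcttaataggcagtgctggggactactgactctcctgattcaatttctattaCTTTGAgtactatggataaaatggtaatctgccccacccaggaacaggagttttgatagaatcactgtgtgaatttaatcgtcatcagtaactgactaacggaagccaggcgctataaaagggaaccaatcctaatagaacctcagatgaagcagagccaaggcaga
Zscan4d: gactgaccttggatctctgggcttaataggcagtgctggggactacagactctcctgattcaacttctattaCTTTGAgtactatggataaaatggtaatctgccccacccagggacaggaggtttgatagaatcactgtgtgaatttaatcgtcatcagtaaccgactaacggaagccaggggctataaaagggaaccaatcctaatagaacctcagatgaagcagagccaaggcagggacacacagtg
Zscan4f: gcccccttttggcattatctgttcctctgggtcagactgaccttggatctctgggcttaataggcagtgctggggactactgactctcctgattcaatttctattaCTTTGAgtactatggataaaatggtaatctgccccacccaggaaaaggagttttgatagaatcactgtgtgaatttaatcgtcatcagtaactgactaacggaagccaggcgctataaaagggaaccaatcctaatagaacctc
Sp5 held 2 matches, at -204 and -104 relative to its start, as did Dkk1, at -174 and -117. Axin2 held 0 in this window, and Zscan4c, Zscan4d and Zscan4f held 1 each. Of 32851 mouse promoter windows of the same length 13.8% held at least 1 match, and a match is a description of the letters only. The Zscan4 sequences are nearly the same: set at their best shift, Zscan4c and Zscan4f were identical at 226 of 227 bases and Zscan4c and Zscan4d at 232 of 239. Reads cannot always be assigned among such close copies, and how counts divide within the Zscan4, Usp17l and Tdpoz families is uncertain.

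The 2 media differed in depth and in the table they were deposited in. Total counts were 20.2 to 42.3 M in the 2MYCP libraries and 6.26 to 7.98 M in the 2MYC libraries (M, mega). Ribosomal protein genes took 4.7% to 5.85% and 5.45% to 6.28% of the counts, and the 12 stem cell markers, Pou5f1, Nanog and Sox2 among them, summed to 5074 to 6039 CPM in 2MYCP and 5999 to 7501 CPM in 2MYC (CPM, each gene's count relative to the TMM-scaled library total). The first principal component, with 38.3% of the variance, put the 2MYCP libraries at -50.2 to -41.2 and the 2MYC libraries at 28.9 to 57.8. On the second, with 19.8%, the 2MYC library of passage 6 stood apart at -84.4, while the other 7 lay between -5.9 and 34.8. An effect of P cannot be told apart from a difference between the 2 deposited tables or their depths.

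Of 15291 genes tested, 974 (6.37%) rose in 2MYCP against 2MYC and 975 (6.38%) fell, 12.7% in all, and the median log2 fold change of all genes tested was 0.02. Rose and fell are used here for a Benjamini-Hochberg adjusted p under 0.05 in edgeR's quasi-likelihood test with passage as a block. The 4 libraries of 2MYCP lay above all 4 of 2MYC for 10.7% of genes and below them for 8.91%. These shares over all genes are the background for the counts of calls and of groups without overlap below. Thinned to one depth of 6.26 M, the libraries gave 884 genes higher and 925 lower, with 824 and 864 of the original calls among them. How many genes passed differed with the passage left out: 407 passed without passage 1, 215 without passage 2, 792 without passage 4 and 2868 without passage 6, against 1949 with all 4. Each of these fits also holds fewer libraries than the full fit, which alone can lower the number that pass, here and in the counts below. In each of these fits every call of the full fit that could be fitted again kept its direction. The fits share most libraries with the full fit that made the calls, so this is no separate check of direction. In all, 187 genes, 90 higher and 97 lower, passed with any 1 passage left out. Because fewer cells of a type and less RNA per cell cannot be told apart in bulk samples, each difference below may be either.

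**Figure D1:**
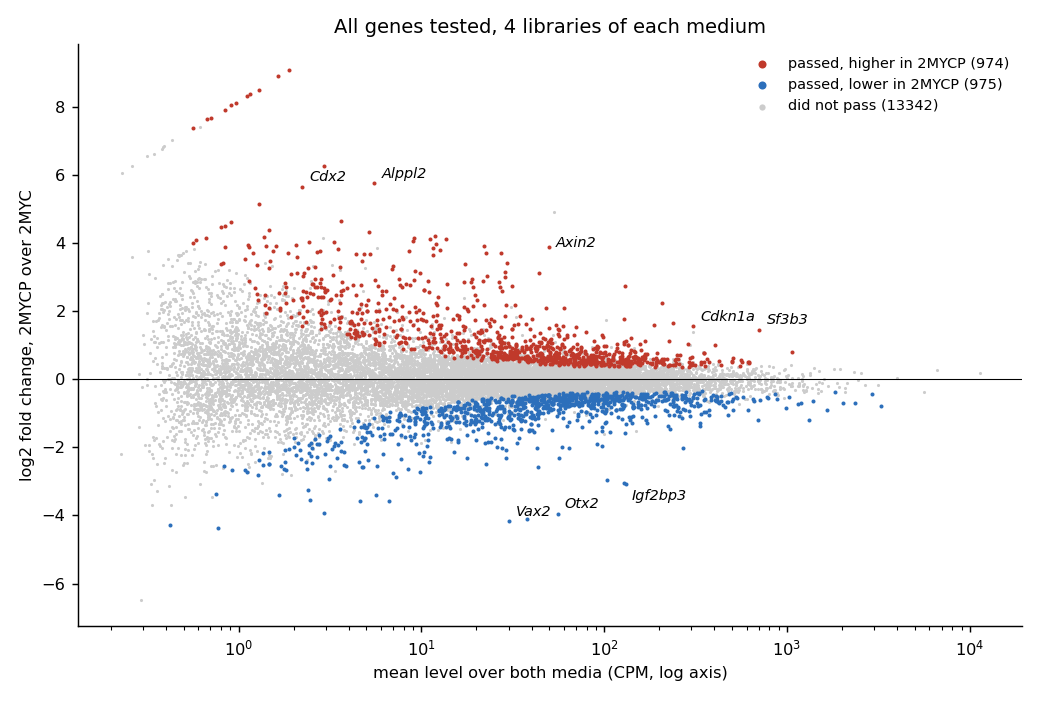
Each point is 1 gene, with its mean level over both media in CPM on a log axis and its log2 fold change, 2MYCP over 2MYC; red genes rose in 2MYCP, blue genes fell and grey genes did not pass the test. The 974 genes that rose and the 975 that fell spread over all levels, and the diagonal row at the upper left holds genes with 0 counts in 2MYC, whose fitted change depends on the prior count.

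**Figure D2:**
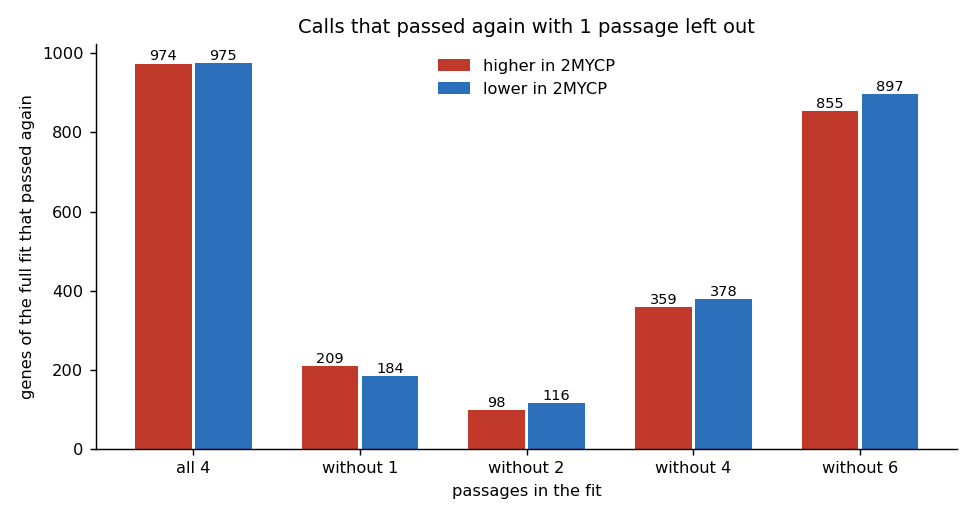
Bars count the genes of the full fit that passed again, higher (red) or lower (blue) in 2MYCP, when 1 passage was left out of both media. Leaving out passage 2 kept 98 and 116 of the 974 and 975 calls, and leaving out passage 6 kept 855 and 897.

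All 5 targets of Wnt signalling that passed were higher in 2MYCP. Axin2, a feedback inhibitor of the pathway, stood at 146, 108, 76.4 and 40.8 CPM in 2MYCP at passages 1, 2, 4 and 6, against 2.05, 3.54, 5.77 and 14.7 CPM in 2MYC (log2 fold change 3.89 ± 0.65, SE, adjusted p = 0.0107). The groups did not overlap, and the gap was widest at passage 1. Sp5, a transcription factor induced by beta-catenin, had 35.0, 16.7, 10.6 and 2.44 CPM in 2MYCP against 0.82, 0, 0.524 and 2.67 CPM in 2MYC (3.78 ± 1.01, adjusted p = 0.0452), so its groups met at passage 6. Lef1, the beta-catenin partner, had 4.98, 5.67, 2.15 and 5.51 CPM in 2MYCP against 0.957, 0.886, 0 and 1.34 CPM in 2MYC (2.70 ± 0.57, adjusted p = 0.022), without overlap. Tnfrsf19, a receptor gene of the tumour necrosis factor family, rose by 2.19 ± 0.46 and Dkk1, a secreted Wnt antagonist, by 3.46 ± 0.64 on the log2 scale. Of 16 Wnt targets tested, 5 rose, 0 fell and 11 missed the threshold, with a median log2 fold change of 1.91 beside 0.02 over all genes. Cdx1, a caudal-type homeobox factor, had 215, 68.6, 127 and 5.55 CPM in 2MYCP against 0.547, 1.18, 0.786 and 9.35 CPM in 2MYC and did not pass (adjusted p = 0.0516). Notum and Ccnd1 did not pass either, with log2 fold changes of 0.68 and 0.19. Without passage 2, 0 of the 5 calls passed again, without passage 1 it was 1, without passage 4 it was 3 and without passage 6 all 5.

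Genes of ligand secretion were also higher in 2MYCP. Porcn, the acyltransferase that every Wnt ligand needs for export, had 59.1, 38.7, 47.3 and 23.2 CPM in 2MYCP against 0.684, 5.61, 4.33 and 2.52 CPM in 2MYC (log2 fold change 3.71 ± 0.46, adjusted p = 0.00511). Its lowest 2MYCP library was far above its highest 2MYC library, and it passed with any passage left out. Wls, the Wnt carrier, rose by 0.63 ± 0.12. The ligand genes Wnt3a and Wnt4 rose by 3.91 ± 0.85 and 3.83 ± 0.76 at low levels, with means of 3.0 and 6.57 CPM in 2MYCP against 0.205 and 0.462 CPM in 2MYC. The receptor gene Fzd10 had 104, 66.3, 65.7 and 44.4 CPM in 2MYCP against 40.5, 39.1, 25.6 and 25.8 CPM in 2MYC (1.07 ± 0.15, adjusted p = 0.00748), and Fzd5, another receptor, fell by 0.50. Of 30 ligand, secretion and receptor genes tested, 5 rose, 1 fell and 24 missed the threshold (median 0.30), and without passage 2 or without passage 1, 2 of the 6 calls passed again. Among 20 genes of the transducing steps, 3 rose, 0 fell and 17 missed the threshold (median 0.04). These were Csnk1e, a casein kinase (0.60), Crebbp, the coactivator CBP (0.60), and Dvl3, a Dishevelled protein (0.48), and without passage 1 or without passage 2, 0 of the 3 passed again. Ctnnb1, which encodes beta-catenin, had 833, 886, 907 and 854 CPM in 2MYCP against 1064, 1114, 1120 and 941 CPM in 2MYC, which did not overlap, and did not pass (-0.28 ± 0.10, adjusted p = 0.101).

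**Figure D3:**
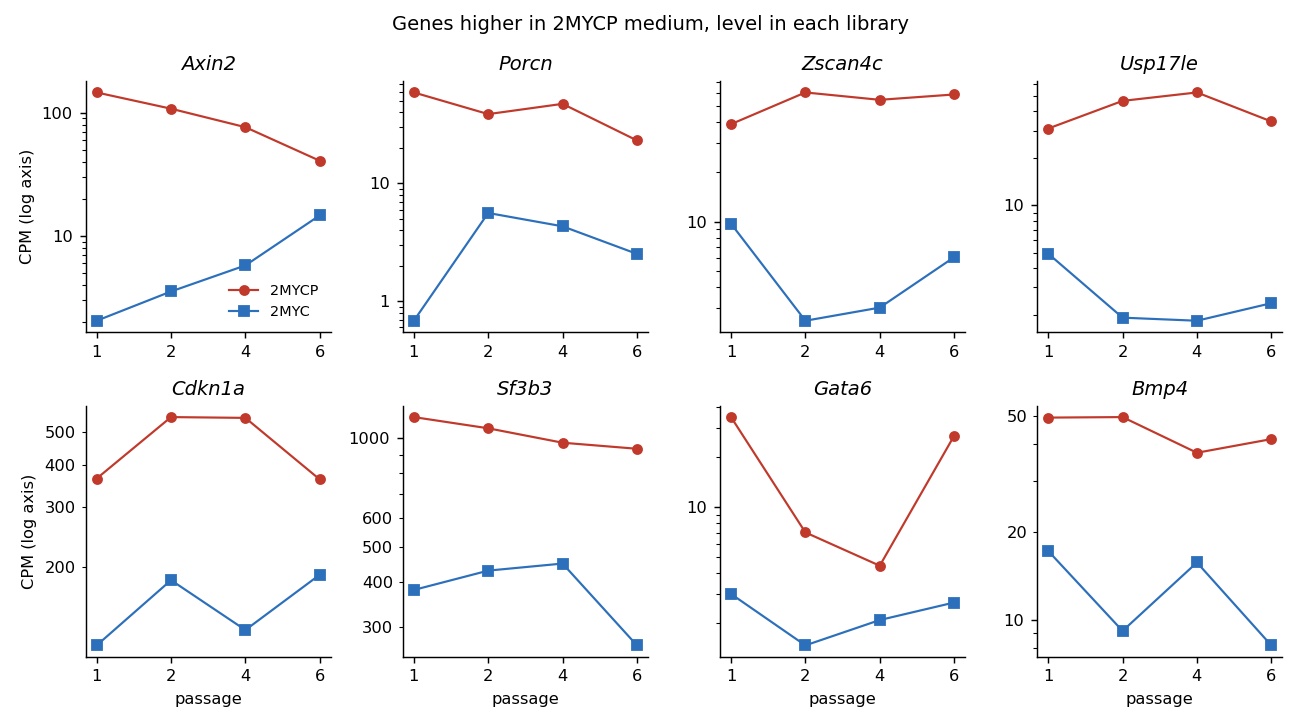
CPM on a log axis at passages 1, 2, 4 and 6 for 8 genes that rose; red circles are 2MYCP and blue squares 2MYC, 1 library each. In all 8 panels the 2MYCP library lay above the 2MYC library at every passage, and for Axin2 the gap narrowed to 40.8 against 14.7 CPM at passage 6.

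Genes of the 2-cell embryo rose in a larger share than those of any other of the 37 lists. Zscan4c, which marks 2-cell-like cells in mouse cultures, had 38.9, 60.5, 54.6 and 58.8 CPM in 2MYCP against 9.71, 2.51, 3.02 and 6.09 CPM in 2MYC (log2 fold change 3.41 ± 0.39, adjusted p = 0.004). Usp17le, a deubiquitinase of the Usp17-like cluster, had 31.0, 46.6, 52.7 and 34.4 CPM in 2MYCP against 4.92, 1.92, 1.84 and 2.38 CPM in 2MYC (3.91 ± 0.36, adjusted p = 0.00287). For both genes each 2MYCP library was above each 2MYC library, and in 2MYC the passage 1 library was the highest. Zfp352, a zinc finger gene of the cleavage stage, had 6.17, 10.7, 5.63 and 10.2 CPM in 2MYCP against 0.547, 0.886, 0.262 and 0.891 CPM in 2MYC (3.69 ± 0.37, adjusted p = 0.00354). Tdpoz4, from a family of proteins with TRAF and POZ domains, had 5.13, 10.5, 3.17 and 6.35 CPM in 2MYCP against 0.547, 0.738, 0.131 and 0.149 CPM in 2MYC (4.03 ± 0.49). Zscan4b (4.22), Usp17lc (4.08), Usp17ld (4.66) and Ubtfl1 (4.05), an HMG-box gene of the early embryo, had larger log2 fold changes still. Of 32 genes of this list tested, 22 rose, 0 fell and 10 missed the threshold, with a median log2 fold change of 2.81. Over all genes tested 6.37% rose. Close copies within the Zscan4, Usp17l and Tdpoz families may share reads, so the 22 calls are not all separate results and the share may be inflated. Those that did not pass included Dppa3, a maternal factor (1.92, adjusted p = 0.0638), Tdpoz3 (2.67, adjusted p = 0.0707) and Cpt2, a mitochondrial enzyme (-0.14). Of the 22 calls, 20, 12, 16 and 22 passed again without passage 1, 2, 4 and 6. The 8 largest rises among genes with a mean of at least 5 CPM held 4 genes of this list, Zscan4b, Usp17lc, Usp17le and Usp17lb (3.86). The other 4 were Axin2, Cubn, the placental-like alkaline phosphatase gene Alppl2 (5.77) and the gamma-glutamyl transferase gene Ggt1 (4.16).

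Of the regulators that restrain or drive the 2-cell programme, those that passed were mostly higher in 2MYCP. Kdm1a, a histone demethylase whose loss raises 2-cell genes in mouse stem cells, had 267, 279, 306 and 306 CPM in 2MYCP against 323, 314, 318 and 278 CPM in 2MYC and did not pass (log2 fold change -0.09 ± 0.11, adjusted p = 0.611). Dppa2, an activator of Dux in mouse cells, rose by 1.38 ± 0.23, with means of 115 CPM in 2MYCP and 44.7 CPM in 2MYC. The repressor genes E2f6 (0.98), Setdb1 (0.63) and Rcor1 (0.50) rose as well, with the elongation factor gene Nelfa (0.65), and Chaf1b, a subunit of the histone chaperone CAF-1, fell (-0.74). Of 26 such regulators tested, 5 rose, 1 fell and 20 missed the threshold (median -0.05), where 6.37% of all genes rose and 6.38% fell. Without passage 2 only E2f6 of the 6 passed again.

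Of the p53 targets that passed, all but 1 were higher in 2MYCP. Cdkn1a, the p21 inhibitor of cyclin-dependent kinases, had 364, 554, 551 and 362 CPM in 2MYCP against 117, 182, 130 and 189 CPM in 2MYC (log2 fold change 1.57 ± 0.17, adjusted p = 0.004), without overlap. It turned to -0.19 when the S/L library deposited with each medium, described below, was subtracted. Mdm2, the ligase that degrades p53, had 455, 485, 463 and 366 CPM in 2MYCP against 191, 338, 275 and 242 CPM in 2MYC (0.78 ± 0.14, adjusted p = 0.0126). Btg2, an antiproliferative gene, had 57.7, 81.2, 70.2 and 162 CPM in 2MYCP against 36.1, 49.5, 37.4 and 69.9 CPM in 2MYC (0.88 ± 0.13, adjusted p = 0.00782), with overlapping groups that differed at each passage. In edgeR's test without the passage block Btg2 missed the threshold (adjusted p = 0.0619). Perp (1.18), a p53 effector at cell junctions, Fas (1.14), a death receptor, and Pmaip1 (1.11), the death gene Noxa, also rose, and Rrm2b, a subunit of ribonucleotide reductase, fell (-1.03). Of 30 targets tested, 13 rose, 1 fell and 16 missed the threshold, with a median log2 fold change of 0.47. Bax (-0.15) and Bbc3 (-0.09), which promote cell death, were among those that did not pass. Trp53 itself, at 483, 426, 365 and 541 CPM in 2MYCP against 432, 502, 517 and 304 CPM in 2MYC, did not pass (0.06 ± 0.20, adjusted p = 0.871). Of 12 regulators of p53, 0 rose, 3 fell (Cdkn2a, a locus that restrains Mdm2, -1.05, Wrap53, -0.61, and the checkpoint kinase gene Chek1, -0.55) and 9 did not pass. Without passage 1 or without passage 2, 3 of the 14 target calls passed again, Cdkn1a and Btg2 among them, and without passage 4 it was 10.

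Another cell cycle inhibitor went the opposite way from Cdkn1a. Cdkn1b, which encodes p27, had 56.3, 29.1, 31.7 and 79.7 CPM in 2MYCP against 144, 126, 129 and 128 CPM in 2MYC (log2 fold change -1.54 ± 0.23, adjusted p = 0.00797), without overlap, and it turned to 0.56 with the S/L libraries subtracted. Ccnd3, a D-type cyclin (-0.76), Wee1, a kinase that holds back mitosis (-0.76), and Cdk2, a kinase of the entry into S phase (-0.50), fell too. Of 24 genes of the G1 phase tested, 1 rose, 5 fell and 18 missed the threshold (median 0.01). Among all genes 6.37% rose and 6.38% fell. Of 24 genes of replication and mitosis, 0 rose, 4 fell and 20 missed the threshold (median -0.28): Bub1, a spindle checkpoint kinase (-0.77), Cdc6 (-0.62), which loads the replicative helicase, Ccnb1, cyclin B1 (-0.61), and Mcm6, a helicase subunit (-0.40). Mki67 and Cdk1 did not pass, with log2 fold changes of 0.03 and -0.17. Without passage 2, 1 of the 6 G1 calls and 0 of the 4 others passed again.

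Of the splicing genes that passed, Sf3b3 had the largest change. Sf3b3, a scaffold of the SF3B complex, had 1145, 1066, 972 and 936 CPM in 2MYCP against 380.1, 430, 450 and 267 CPM in 2MYC (log2 fold change 1.46 ± 0.14, adjusted p = 0.00287), and its lowest 2MYCP library was above its highest 2MYC library. Its partner Sf3b1, the branch point binding subunit, had 768, 720, 739 and 681 CPM in 2MYCP against 670, 633, 686 and 652 CPM in 2MYC and did not pass (0.14 ± 0.10, adjusted p = 0.377). Snrpf, an Sm core protein, had a larger change than Sf3b3, 1.51, but did not pass. With the S/L libraries subtracted, Sf3b3 was at 0.72 and Sf3b1 at 1.37, so their order turned. Of 21 genes of the U2 particle tested, 3 rose, 1 fell and 17 missed the threshold (median 0.07). The other calls were the U2-associated factors Sugp1 (0.57) and Rbm17 (0.49), which rose, and the helicase gene Ddx46 (-0.54), which fell. Of 31 other spliceosome genes, 5 rose, 1 fell and 25 missed the threshold (median 0.14), from Aqr, an intron-binding helicase (0.66), to Luc7l2, a U1-associated factor (-0.78). Without passage 1 or without passage 2, 1 of the 4 U2 calls passed again, and of the 6 other spliceosome calls 1 passed again without passage 1 and 0 without passage 2.

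The SR proteins, which bind exonic enhancers, were lower in 2MYCP where they passed. Srsf3 had 348, 375, 291 and 293 CPM in 2MYCP against 697, 643, 668 and 353 CPM in 2MYC (log2 fold change -0.81 ± 0.15, adjusted p = 0.0161), and the 2MYC library of passage 6 fell within the 2MYCP range. Srsf10 had 260, 238, 184 and 210 CPM in 2MYCP against 449, 360, 422 and 278 CPM in 2MYC (-0.75 ± 0.14, adjusted p = 0.0152), without overlap, and it turned to 0.78 with the S/L libraries subtracted. Of 24 SR proteins and their kinases tested, 0 rose, 6 fell and 18 missed the threshold (median -0.26), where 6.38% of all genes fell. The other falls were Srsf9 (-0.60), the SR-related Rbm39 (-0.58), Srsf7 (-0.53) and Tra2a (-0.49). Without passage 1 or without passage 2, 0 of the 6 passed again, and without passage 4 it was 1. Sf3b3 passed in each of these fits.

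Lineage genes of the blastocyst moved in part. Gata6, the factor that starts primitive endoderm, had 34.7, 7.05, 4.45 and 26.8 CPM in 2MYCP against 3.01, 1.48, 2.10 and 2.67 CPM in 2MYC (log2 fold change 2.62 ± 0.42, adjusted p = 0.00947), with an uneven course across the passages of 2MYCP. Sox17, another endoderm factor, rose by 2.54 ± 0.68 and the receptor gene Pdgfra by 1.77 ± 0.29. Foxa2, an endoderm factor, had 110 counts over the 2MYCP libraries against 2 over the 2MYC libraries, a scaled ratio of 13.2 with a 95% counting interval of 3.58 to 111. Of 15 genes of the endoderm list tested, 5 rose, 0 fell and 10 missed the threshold (median 1.5), and Gata4, a later endoderm factor, did not pass (-0.09). The rises were Gata6, Sox17, Foxa2, Pdgfra and Dkk1, which is also counted among the Wnt targets above. Without passage 2, 0 of these 5 passed again, and without passage 1 it was 1. Cubn, an uptake receptor of visceral endoderm, had 3.48, 9.19, 3.47 and 69.3 CPM in 2MYCP against 0.41, 1.33, 0.131 and 1.49 CPM in 2MYC (4.13 ± 0.51, adjusted p = 0.00511). Of 18 genes of endoderm secretion and uptake, 1 rose, 2 fell (the lipid carrier gene Apoe, -0.76, and Nid1, of the basement membrane, -0.63) and 15 did not pass (median -0.04).

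Trophectoderm genes did not move as a group. Cdx2, the trophectoderm factor, had 450 counts over the 2MYCP libraries (10.7, 3.88, 2.36 and 0.504 CPM) against 2 over the 2MYC libraries, a scaled ratio of 54.1 with a 95% counting interval of 14.9 to 448, and it was highest at passage 1. Eomes, shared with mesoderm, had 42.6, 43.2, 29.0 and 17.5 CPM in 2MYCP against 5.20, 3.84, 3.28 and 13.4 CPM in 2MYC (log2 fold change 2.49 ± 0.49, adjusted p = 0.0186). Krt8, an epithelial keratin, had 30.1, 24.1, 54.8 and 30.0 CPM in 2MYCP against 11.9, 16.7, 20.1 and 28.7 CPM in 2MYC and did not pass (0.84 ± 0.25, adjusted p = 0.0574), though it passed without passage 6 (adjusted p = 0.0095). Of 24 trophectoderm genes tested, 2 rose, 2 fell (Atp1b1, a sodium pump subunit, -0.61, and the factor Ets2, -0.58) and 20 did not pass (median 0.15). Among all genes the share that passed was 12.7%. Gata3 and Tead4, factors of trophectoderm, did not pass, at -0.03 and 0.02. Without passage 2, and likewise without passage 1, 0 of the 4 calls passed again.

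Of the genes of mesoderm and of the Nodal and BMP pathways, those that passed were mostly higher in 2MYCP. Bmp4, a ligand of mesoderm formation, had 49.5, 49.7, 37.5 and 41.7 CPM in 2MYCP against 17.2, 9.16, 15.7 and 8.17 CPM in 2MYC (log2 fold change 1.87 ± 0.23, adjusted p = 0.00511), without overlap. Snai1, a repressor of epithelial genes, had 27.6, 25.3, 16.2 and 30.2 CPM in 2MYCP against 3.69, 6.79, 10.2 and 8.76 CPM in 2MYC (1.78 ± 0.33, adjusted p = 0.0151). Cdh1, which encodes E-cadherin and is a known target of Snai1 repression, rose as well, with 379, 570, 753 and 472 CPM in 2MYCP against 282, 220, 270 and 287 CPM in 2MYC (1.0 ± 0.18, adjusted p = 0.0143). Of 18 streak and mesoderm genes tested, 5 rose, 2 fell (Fgf8, a streak ligand, -2.72, and the cardiac factor Tbx20, -1.79) and 11 did not pass (median 0.83). Among these rises, Eomes is also counted in the trophectoderm list, Pdgfra in the endoderm list and Bmp4 in the list that follows. Of 25 genes of the Nodal and BMP pathways, 4 rose, 0 fell and 21 missed the threshold (median 0.34), where 12.7% of all genes passed. Id1 (0.53), Id3 (0.78), Id4 (-1.5), Smad6 (0.04) and Lefty2 (-1.6) were among those that did not pass. The rises were Bmp4, Inhba, an activin subunit (1.26), Tgfb1 (0.66) and the BMP effector Smad1 (0.62). The summed level of 19 fibroblast markers, described below, also ran higher in 2MYCP (799 to 1716 CPM against 524 to 1147 CPM in 2MYC). This sum was 2379 CPM in the S/L library deposited with 2MYCP and 1039 CPM in that with 2MYC. Its part in these rises was not tested. Without passage 2, 1 of the 7 mesoderm calls and 2 of the 4 Nodal and BMP calls passed again. Of 25 junction and adhesion genes, 3 rose, 2 fell (the desmoplakin gene Dsp, -0.78, and the integrin gene Itga6, -0.65) and 20 did not pass (median 0.25), and without passage 2, 0 of the 5 calls passed again.

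The FGF pathway genes that passed went both ways. Etv4, a transcription factor induced by ERK signalling, had 67.3, 66.7, 38.5 and 42.2 CPM in 2MYCP against 9.57, 21.4, 18.9 and 10.5 CPM in 2MYC (log2 fold change 1.85 ± 0.26, adjusted p = 0.00743), without overlap. Its change was 0.52 with the S/L libraries subtracted. The feedback inhibitors Spry4 (1.46) and Spry1 (0.89) and the receptor gene Fgfr1 (0.68) rose. The ligand genes Fgf8 (-2.72), Fgf3 (-1.33) and Fgf4 (-0.95) fell. Of 25 FGF and ERK genes tested, 4 rose, 3 fell and 18 missed the threshold (median 0.14), where 12.7% of all genes passed. The feedback gene Dusp6 (-0.06) and the ligand gene Fgf5 (2.03) were among those that did not pass. Without passage 2 only Etv4 of these 7 passed again.

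The core pluripotency factors did not pass the test. Pou5f1 had 973, 1130, 1100 and 1020 CPM in 2MYCP against 1344, 1374, 1287 and 910 CPM in 2MYC (log2 fold change -0.20 ± 0.13, adjusted p = 0.315). Nanog had 584, 554, 660.2 and 632 CPM in 2MYCP against 674, 618, 556 and 555.3 CPM in 2MYC (0.02 ± 0.12, adjusted p = 0.939). Sox2 had 689, 346.3, 328 and 766 CPM in 2MYCP against 811, 701, 808 and 773 CPM in 2MYC (-0.64 ± 0.21, adjusted p = 0.0792), with passages 2 and 4 of 2MYCP low. Without passage 6, Sox2 (-0.87, adjusted p = 0.0131) and Pou5f1 (-0.34, adjusted p = 0.0478) passed as lower. Of 24 naive pluripotency genes tested, 1 rose (Dppa2), 4 fell and 19 missed the threshold (median -0.30). Those that fell were Tcl1, a cofactor of AKT (-1.40), Nr0b1, the nuclear receptor Dax1 (-1.30), Fgf4 and Prdm14, a naive regulator (-0.84). Nr0b1 had 86.8, 71.3, 58.0 and 76.2 CPM in 2MYCP against 204, 217, 244 and 91.5 CPM in 2MYC, and its change turned to 1.48 with the S/L libraries subtracted. Without passage 1 or without passage 2, 0 of the 5 calls passed again.

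Among the largest falls were Otx2, Vax2 and Sox21, homeobox and SOX factors, and the RNA-binding protein gene Igf2bp3. Otx2, which drives exit from naive pluripotency, had 1.2, 4.52, 5.19 and 48.5 CPM in 2MYCP against 98.0, 94.8, 108 and 84.3 CPM in 2MYC (log2 fold change -3.95 ± 0.78, adjusted p = 0.019), and it was far higher in the passage 6 library of 2MYCP than in the other 3. Vax2, a homeobox factor of the ventral eye, had 2.29, 2.34, 4.38 and 3.91 CPM in 2MYCP against 43.5, 66.9, 65.5 and 52.1 CPM in 2MYC (-4.17 ± 0.22, adjusted p = 0.000263), and its antisense gene Vax2os moved with it (-4.09), though counting by strand is not stated and the pair may share reads. Sox21, a SOX factor of neural progenitors, had 29.7, 26.1, 15.9 and 48.3 CPM in 2MYCP against 266, 237, 261 and 173 CPM in 2MYC (-3.06 ± 0.31, adjusted p = 0.00359), a change of 0.13 with the S/L libraries subtracted. Igf2bp3, an RNA-binding protein of embryonic tissues, had 27.4, 22.8, 45.1 and 20.0 CPM in 2MYCP against 228, 223, 258 and 206 CPM in 2MYC (-3.05 ± 0.16, adjusted p = 0.000263). All 4 of these were without overlap, and Vax2, Sox21 and Igf2bp3 passed with any passage left out, which Otx2 did not without passage 1, 2 or 4, and its change was -2.70 without the passage block. The rest of the 8 largest falls were A2m, a protease inhibitor (-2.95), Galnt9, a glycosyltransferase (-3.40), and Lrtm2 (-3.57). In the formative list of 20 genes, 2 rose (Etv4 and Dnmt3b), 2 fell (Otx2 and Lin28b, an inhibitor of let-7, -0.87) and 16 did not pass (median -0.30). Without passage 1 or without passage 2, 1 of these 4 calls passed again, and without passage 4 it was 2.

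**Figure D4:**
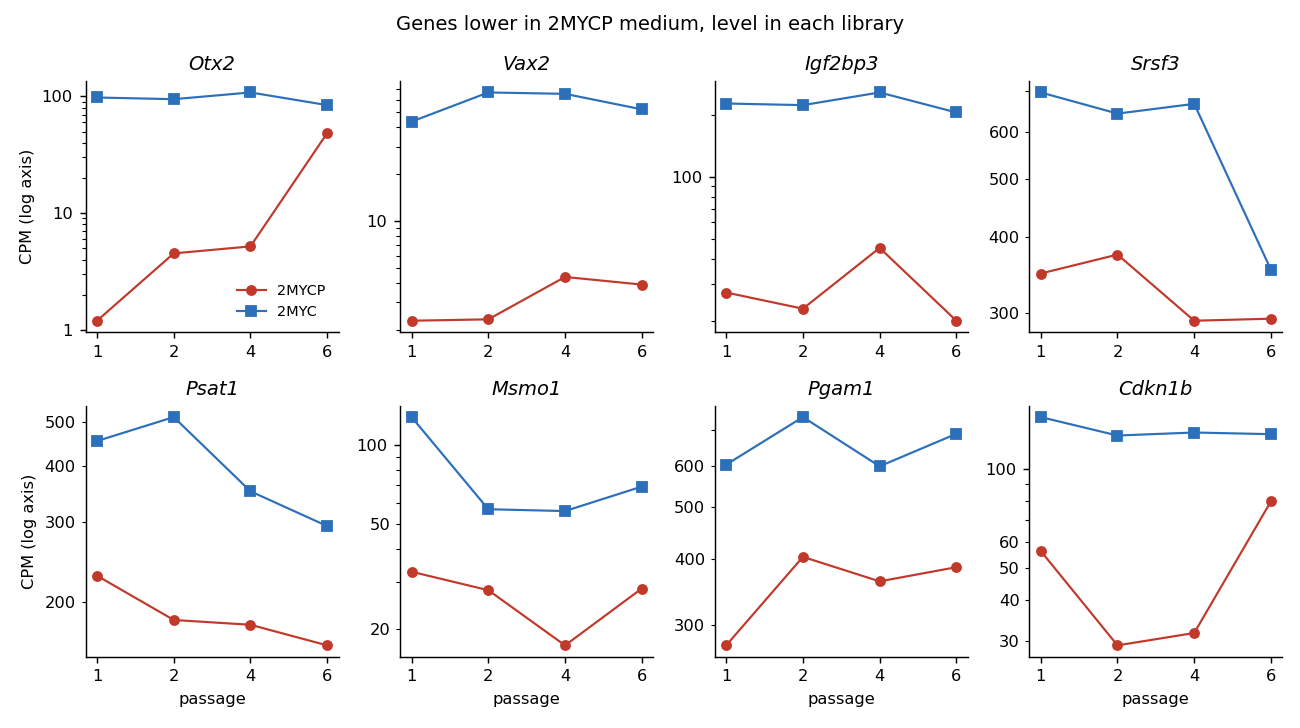
CPM on a log axis at passages 1, 2, 4 and 6 for 8 genes that fell; red circles are 2MYCP and blue squares 2MYC, 1 library each. The 2MYCP library lay below the 2MYC library at every passage in all 8 panels, Otx2 came nearest at passage 6 (48.5 against 84.3 CPM) and Srsf3 in 2MYC dropped to 353 CPM at passage 6.

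Genes of LIF signalling moved in both directions where they passed. Socs2, a feedback inhibitor of cytokine signalling, had 12.9, 11.3, 9.79 and 6.89 CPM in 2MYCP against 57.4, 40.3, 47.2 and 21.4 CPM in 2MYC (log2 fold change -1.98 ± 0.17, adjusted p = 0.00236), without overlap. The kinase gene Pim3 fell by 1.29, while Gbx2, a LIF-responsive homeobox factor, rose by 2.19 and Jak2 by 0.59. Of 15 LIF and STAT3 genes tested, 2 rose, 2 fell and 11 missed the threshold (median -0.24), and Stat3 itself did not pass, with means of 155 CPM in 2MYCP and 153 CPM in 2MYC. Of 16 MYC family genes, 0 rose, 1 fell (Mycl, -1.72) and 15 did not pass (median -0.04). Without passage 2, 1 of the 4 LIF calls passed again, and Mycl passed.

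Chromatin genes showed opposite moves within 1 system. Dnmt3b, a de novo DNA methyltransferase, had 92.5, 68.7, 57.1 and 111 CPM in 2MYCP against 15.3, 36.9, 37.4 and 33.4 CPM in 2MYC (log2 fold change 1.44 ± 0.30, adjusted p = 0.0208), and its cofactor Dnmt3l rose by 1.06. Hells (-0.80), a remodeller that aids methylation, and Uhrf1 (-0.60), which brings the maintenance enzyme to replicated DNA, fell. Of 17 genes of DNA methylation tested, 2 rose, 2 fell and 13 missed the threshold (median -0.02), and Dnmt1, Tet1 and Tet2 were at -0.26, -0.02 and -0.22. Of 24 Polycomb genes, 3 rose (Pcgf3, Jarid2 and Pcgf2, 0.48 to 0.55), 2 fell (Phf19, -2.44, and Suz12, -0.56, both of the PRC2 complex) and 19 did not pass (median 0.09). Of 27 imprinted genes, 0 rose, 4 fell (Grb10, a growth inhibitor, -1.38, the noncoding Rian, -1.08, and Meg3, -0.92, and Slc38a4, an amino acid carrier, -0.44) and 23 did not pass (median -0.06). Of 26 germline genes, 5 rose, 1 fell (Prdm1, a specifier of germ cells, -1.33) and 20 did not pass (median 0.55). Beside these lists, 12.7% of all genes tested passed, 6.37% as higher and 6.38% as lower. Ddx4, an RNA helicase of germ cells, had 47.7, 14.8, 21.2 and 28.6 CPM in 2MYCP against 12.2, 6.65, 9.70 and 13.5 CPM in 2MYC (1.34 ± 0.21, adjusted p = 0.00865). Without passage 2, 0 of the 4 methylation calls, 1 of the 5 Polycomb calls, 3 of the 4 imprinted calls and 1 of the 6 germline calls passed again.

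Genes of serine synthesis were lower in 2MYCP. Phgdh, the first enzyme of serine synthesis, had 93.6, 92.5, 91.6 and 77.4 CPM in 2MYCP against 229, 264, 182 and 113 CPM in 2MYC (log2 fold change -1.09 ± 0.16, adjusted p = 0.00756). Psat1, the next enzyme, had 229, 183, 178 and 161 CPM in 2MYCP against 453, 512, 351 and 294 CPM in 2MYC (-1.08 ± 0.13, adjusted p = 0.00429), and neither gene overlapped between the media. Psph (-1.23), which completes serine synthesis, Shmt2 (-0.86), of mitochondrial one-carbon metabolism, Cth (-0.95), of cysteine synthesis, the stress gene Nupr1 (-1.24) and the amino acid carrier gene Slc7a5 (-0.79) fell with them. Of 31 genes of amino acid stress and serine synthesis tested, 1 rose (Mthfd1, a cytosolic folate enzyme, 0.61), 12 fell and 18 missed the threshold (median -0.37). Atf4, the factor that induces many of these genes, did not pass (-0.31, adjusted p = 0.386), nor did Asns (-0.18) and Ddit3 (0.02). Of the 13 calls, 4, 2, 6 and 13 passed again without passage 1, 2, 4 and 6.

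In cholesterol synthesis, Msmo1, a sterol oxidase, had 32.9, 28.0, 17.3 and 28.4 CPM in 2MYCP against 127, 56.9, 56.0 and 69.3 CPM in 2MYC (log2 fold change -1.49 ± 0.17, adjusted p = 0.004). Its groups were apart, and Idi1 (-1.28), Insig1 (-0.94), Fdps (-0.83) and Srebf2 (-0.53), the factor that drives the pathway, fell too. Of 24 genes tested, 1 rose (Ebp, a sterol isomerase, 1.06), 9 fell and 14 missed the threshold (median -0.44). Of the 10 calls, 3, 4, 5 and 9 passed again without passage 1, 2, 4 and 6.

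In glycolysis, Pgam1, phosphoglycerate mutase, had 274, 403, 362 and 385 CPM in 2MYCP against 603, 741, 598 and 689 CPM in 2MYC (log2 fold change -0.89 ± 0.11, adjusted p = 0.00502), without overlap. Ldhb, a lactate dehydrogenase subunit, had 82.2, 149, 155 and 115 CPM in 2MYCP against 427, 305, 282 and 277 CPM in 2MYC (-1.38 ± 0.23, adjusted p = 0.0109), also without overlap. Vegfa (-1.12), a hypoxia-induced ligand, Pgk1 (-0.89), Gapdh (-0.75), the glucose carrier gene Slc2a3 (-0.68) and hexokinase Hk2 (-0.53) fell as well. Of 24 genes tested, 0 rose, 7 fell and 17 missed the threshold (median -0.26), where 6.38% of all genes fell. Ldha (-0.22), Pkm (-0.18) and Slc2a1 (-0.27) did not pass. Without passage 2 only Pgam1 of the 7 passed again, and without passage 4 it was 6.

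**Figure D5:**
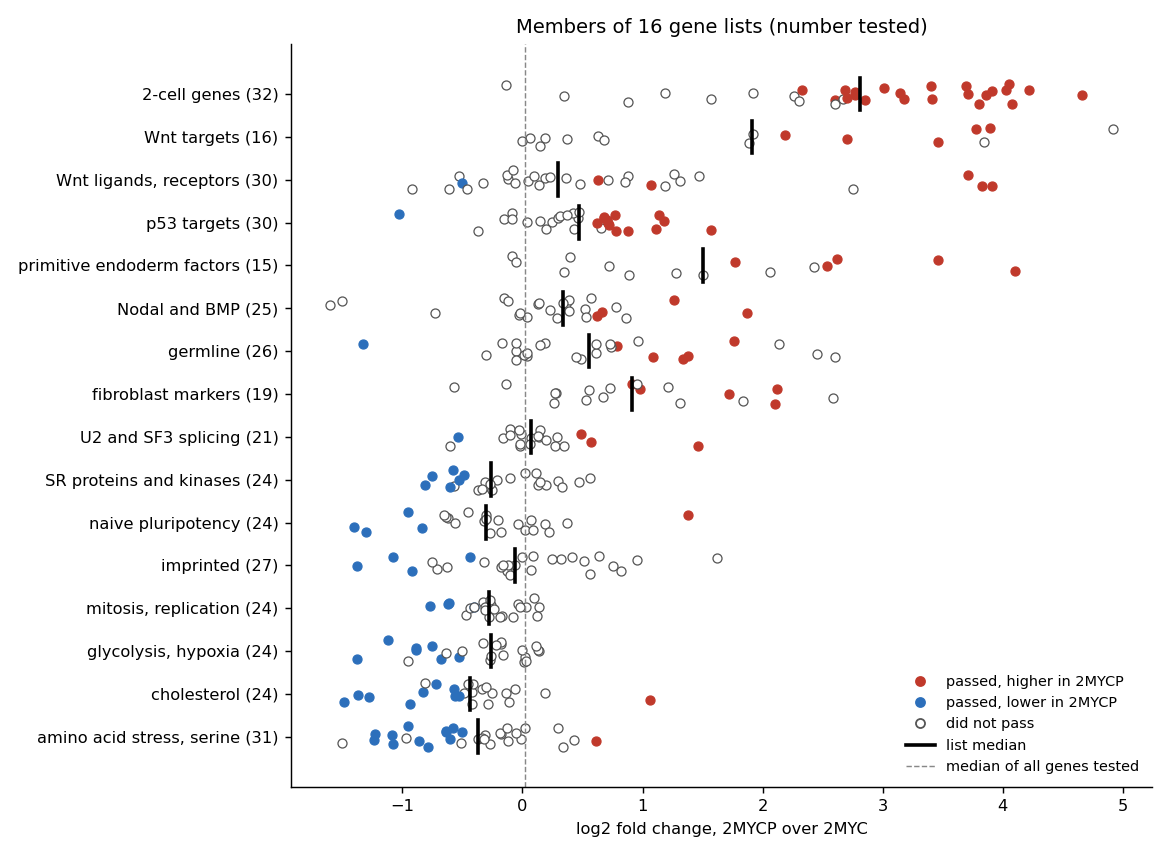
Each point is the log2 fold change, 2MYCP over 2MYC, of 1 tested member of 16 gene lists; filled points passed the test (red higher, blue lower in 2MYCP), open points did not, black bars are list medians and the dashed line is the median of all genes tested, 0.02. The 2-cell genes lie farthest to the right with a median of 2.81, and the cholesterol genes farthest to the left with -0.44.

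Beside 12.7% of all genes, 1 gene passed in the interferon list and 3 in the Hippo list. Of 28 interferon genes tested, 1 rose (Tap1, a peptide carrier, 1.52), 0 fell and 27 missed the threshold (median -0.11). Of 19 Hippo genes, 2 rose (the angiomotins Amot, 0.97, and Amotl1, 0.70), 1 fell (Nf2, an upstream activator, -0.58) and 16 did not pass (median 0.07). Without passage 2, or without passage 1 or 4, 0 of these calls passed again.

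Markers of other cell types were read for cells that the cultures could hold. Of 19 fibroblast markers tested, 5 rose, 0 fell and 14 missed the threshold (median log2 fold change 0.91). Their summed level was 799 to 1716 CPM in 2MYCP against 524 to 1147 CPM in 2MYC. The sum also differed between the S/L libraries described below, at 2379 CPM in that deposited with 2MYCP and 1039 CPM in that with 2MYC. Postn, a matrix protein, had 28.1, 29.6, 29.8 and 23.6 CPM in 2MYCP against 5.33, 6.35, 9.44 and 4.90 CPM in 2MYC (2.12 ± 0.20, adjusted p = 0.00288), and Thy1, a surface marker, had 44.2, 108, 55.4 and 108 CPM in 2MYCP against 18.7, 19.4, 18.9 and 11.9 CPM in 2MYC (2.10 ± 0.30). Tagln (1.72), Prrx1 (0.98) and Col6a3 (0.91) rose too, while the collagens that define fibroblasts did not pass: Col1a1 at 0.28, Col1a2 at 0.26 and Col3a1 at -0.57. Of the 4 passages the fibroblast sum was highest at passage 6 in 2MYCP and at passage 2 in 2MYC, and its part in the rises of mesoderm and endoderm genes was not tested. Of 13 neural markers, 1 rose (Stmn2, 0.98), 2 fell (Sox1, -1.95, and Elavl3, -1.23) and 10 did not pass, with summed levels of 318 to 527 CPM in 2MYCP and 293 to 419 CPM in 2MYC. Of 11 cardiac markers, 0 rose and 1 fell (Tnni3, -1.39), and of 9 blood and endothelial markers 2 rose (Cdh5, 3.72, and Runx1, 1.35) and 0 fell. Their summed levels were 19.8 to 26.2 CPM in 2MYCP against 20.0 to 36.1 CPM in 2MYC for cardiac markers, and 104 to 144 CPM against 77.7 to 137 CPM for blood and endothelial markers. Without passage 1, 2 of the 5 fibroblast calls passed again, and without passage 2 it was 1. Without passage 2, 0 of the calls among neural, cardiac, and blood and endothelial markers passed again. Of the 12 stem cell markers, 0 rose, 1 fell (Fgf4, -0.95) and 11 did not pass (median -0.31).

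Whether the difference between the media changed along the passages was tested as an interaction with log2 of passage. In edgeR 0 of 15291 genes passed (0%), with 657 at an unadjusted p under 0.05 and a smallest adjusted p of 0.158. That gene was Axin2, whose log2 difference shrank by 1.74 ± 0.22 for each doubling of passage, and with passage as a plain number it was the only gene to pass (-0.90 per passage, adjusted p = 0.00615). Otx2 had a change of 1.98 ± 0.37 for each doubling (adjusted p = 0.997), from a difference that was largest at passage 1.

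Other passages of the same media, outside the matched set, gave further values, scaled together with the 8 libraries and not tested on their own. In 2MYCP at passages 8, 14 and 19, Zscan4c had 69.9, 78.8 and 95.2 CPM, against 3.32 and 1.88 CPM in 2MYC at passages 3 and 5. Sf3b3 had 812, 862 and 760 CPM in 2MYCP against 362 and 317 CPM in 2MYC, and Vax2 had 4.60, 2.36 and 1.37 CPM in 2MYCP against 58.2 and 54.3 CPM in 2MYC. These 3 genes thus kept the order of the matched passages. Axin2 did not: it had 32.8, 52.0 and 39.3 CPM in 2MYCP at passages 8, 14 and 19, against 3.02 CPM at passage 3 and 35.5 CPM at passage 5 in 2MYC. Sp5 had 1.77, 1.66 and 2.61 CPM in 2MYCP against 0 and 9.71 CPM in 2MYC, and Tnfrsf19 had 51.2, 43.3 and 49.6 CPM in 2MYCP against 10.7 and 50.3 CPM in 2MYC, so for both the 2MYC library of passage 5 reached the 2MYCP range. Gata6 reached 15.5, 100.1 and 60.2 CPM in 2MYCP against 0.604 and 1.88 CPM in 2MYC.

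Each deposited table also holds 1 library of the same line in S/L medium, the stem cell medium. The S/L library of the 2MYCP table stands apart in make-up: 15% of its counts were of ribosomal protein genes, against 6.31% in that of the 2MYC table, and its log2 CPM rose by 0.81 per log10 unit of exon length, against 2.27 to 2.51 in the other 9 libraries. Zscan4c had 7.95 CPM in the S/L library of the 2MYCP table and 4.06 CPM in that of the 2MYC table, and Axin2 had 5.95 and 13.5 CPM. Vax2, at 7.35 and 5.41 CPM, was near its 2MYCP level in both S/L libraries, so the high group was 2MYC. Porcn, at 114 and 60.2 CPM, was higher in both S/L libraries than its highest 2MYCP library of 59.1 CPM. Cdkn1a already differed between the S/L libraries, at 411 CPM in that of the 2MYCP table and 123 CPM in that of the 2MYC table. When each medium was set against the S/L library of its own table, with no test, 78.5% of the genes that rose and 69.2% of those that fell kept their direction, and Cdkn1a (-0.19), Cdkn1b (0.56), Srsf10 (0.78), Nr0b1 (1.48) and Sox21 (0.13) did not. The same subtraction left Snai1 at 0.03, Thy1 at 0.27, Postn at 0.40, Btg2 at 0.26, Wnt4 at 0.45 and Etv4 at 0.52. It left Axin2 at 5.19, Zscan4c at 2.51, Usp17le at 2.17 and Vax2 at -4.58.

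The same 2 media, each with doxycycline added, were used on ZHBTc4 cells, a line in which doxycycline silences Pou5f1, at passages 2 and 3 (n = 2 each). The line is named in the titles alone, while the cell line label reads TC1-GFP, and doxycycline in the 2MYC libraries is named by the treatment label and not by their titles. Here too the media came from separate deposited tables, so medium and table cannot be told apart. These libraries share no sample with the 8 above and held 1.04 to 41.8 M counts. Pou5f1, the silenced gene, had 4.13 and 0.16 CPM in 2MYCP at passages 2 and 3, against 0 and 0.968 CPM in 2MYC. Of 14366 genes tested, 407 rose and 410 fell in 2MYCP against 2MYC (5.69%), and the median log2 fold change was 0.24. Of the genes that rose in TC1-GFP cells 640 of 919 had a positive log2 fold change in ZHBTc4 cells, where 55.5% of all genes did, and of those that fell 533 of 910 had a negative one. Zscan4c had 24.8 and 0.08 CPM in ZHBTc4 cells in 2MYCP, against 0 and 3.63 CPM in 2MYC, and did not pass. Mdm2 (2.10, adjusted p = 0.109) and Cdkn1a (1.22, adjusted p = 0.465) were higher without passing, whereas Cdx2 (-4.12, adjusted p = 0.00287), Dnmt3b (-2.86, adjusted p = 0.0113) and Wnt4 (-2.50, adjusted p = 0.0279) fell and Pgam1 rose (2.55, adjusted p = 0.026), each opposite to its change in TC1-GFP cells. The difference between the 2 lines was not tested.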

How the data were processed

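Counts per gene symbol of bulk RNA-seq libraries were deposited by the authors in tables of 24984 names. Trimmomatic, HISAT2 and featureCounts are named, without versions, per the submitters' processing notes, as are mm10 and hg38. The annotation, read pairing and strand setting are not given in the sources used here. From the deposited counts, 26 names that had turned into dates were left out, 0.13% to 0.2% of a library, leaving 24958 genes. In these libraries 73.3% to 81.4% of low counts were even, a pattern that counting each mate of a read pair would give, and a fit on halved counts was tried. 

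Medium and passage in the labels set the groups. The fit used filterByExpr, TMM scaling and the quasi-likelihood F test of edgeR 4.0.16 (R 4.3.3) on the counts, with passage as a block, and p-values were adjusted by Benjamini-Hochberg over all 15291 genes tested. Standard errors were taken as the size of the log2 fold change divided by the root of F. The alternatives were no block, DESeq2 size factors, no filter or at least 50 counts in 4 libraries, the Wald test of DESeq2 1.42.0, each passage left out, thinning, halving, taking out a gene length trend per library, passages 3 and 5 of 2MYC added and the S/L library subtracted. The code was checked on simulated data for 15291 genes. Of 100 genes set to change 2-fold 62% passed, and of 100 set to change 4-fold 80% passed. Among the unchanged genes there were 14 false calls.

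The 37 gene lists (797 genes) and the members described were chosen with earlier results of these data known. Named by rule were 22 genes whatever their result, from each list at most 5 members per direction that passed and changed most, and, at a mean of 5 CPM or more, the 8 genes that changed most in each direction, gene models left out; of 169 genes so named, 51 were chosen to be followed in each library or each alternative. Members that did not pass were named after their values were seen. Counting intervals cover counting error only. They take each count as separate, so they are too narrow if both mates of a read pair were counted.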

Additional observations from a re-analysis of the deposited data

Results flagged for a closer look

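In 7 of 102 groups of 4 libraries (51 genes in each medium) 1 library lay apart from the other 3 by Dixon's test, where chance gives about 1 in 20. In 2MYCP these were the passage 6 libraries of Otx2 (48.5 CPM, high), Cubn (69.3 CPM, high) and Phgdh (77.4 CPM, low). In 2MYC they were passage 6 of Srsf3 (353 CPM, low) and Thy1 (11.9 CPM, low), passage 1 of Cdkn1b (144 CPM, high) and passage 4 of Cdx2 (0.262 CPM). Cdx2 had a count in no other 2MYC library, so its result follows from the zeros and carries no information, which leaves 6. Of these 6, 5 were passage 6 libraries. Their part in the results was not tested beyond the fits without passage 6, in which 0 of the 43 calls among the 51 genes were lost.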

How the results depend on the processing

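Against 1949 calls, leaving out 1 passage gave 215 to 2868, the lowest without passage 2. The Wald test of DESeq2 gave 3027, and adding passages 3 and 5 of 2MYC without a block gave 3537. Without the passage block 2064 genes passed, 849 higher and 833 lower of them shared with the blocked fit. Same-passage libraries deviated together little (correlations of 0.03, 0.11, 0 and 0.06 at passages 1, 2, 4 and 6, best with their own passage in 2 of 4). These values show little pairing by passage number, and they cannot tell how the cultures were run. Without the block Btg2 missed the threshold (adjusted p = 0.0619). Under the other settings (DESeq2 size factors, both filters, thinning, halving, gene length) 1809 to 2169 genes passed, with Sp5 missing under the stricter filter (adjusted p = 0.0502). Krt8 passed with no filter (0.86), in DESeq2 (0.84), with the gene length trend removed (0.90) and with the added passages (0.91), Ctnnb1 with the added passages (-0.29) and without passage 6 (-0.34), and Sox2 in DESeq2 (-0.65). With the S/L library subtracted, Cdkn1a (-0.19), Srsf10 (0.78), Sox21 (0.13), Nr0b1 (1.48) and Cdkn1b (0.56) turned, as did Krt8 (-0.43), Sox2 (2.01), Ctnnb1 (1.41), Trp53 (-0.31) and Kdm1a (0.10), which had not passed. Besides the first 5, 43 of the 51 genes followed moved by about the standard error of their log2 fold change or more. Some moved little (Psat1, from -1.08 to -0.95), while Snai1 (0.03), Thy1 (0.27), Postn (0.40), Wnt4 (0.45) and Etv4 (0.52) became much smaller. Pou5f1, which had not passed, moved from -0.20 to -0.96. The interaction with passage gave 1 gene with passage as a plain number and 0 with the added passages. In ZHBTc4 cells 396 genes passed without the replicate block, against 817 with it; leaving out a passage there leaves 1 library per medium and no test. The cause of these changes was not tested. Genes with few counts in the shallower 2MYC libraries (6.26 to 7.98 M) have the least certain folds.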
